A study of Mus musculus with 11 samples.

Results

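10 genes of striated muscle were followed across the aortas of old mice, out of 36413 gene and transcript names on the array. The members are Myh6, Actc1, Tnnt2, Tnni3, Myl2, Myl7, Nppa, Tcap, Acta1 and Ckm, and each was found by its exact name among the spots that measure mouse RNA. All 10 were on the array. Myh6 had 2 probes and each of the others 1, which makes 11 probes, and the Nppa probe was printed on 10 spots. No measured value entered this choice, but the members were picked with earlier results of these arrays in view.

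RNA came from the descending aorta of male C57BL/6 mice aged 20 months. Old nitrate treated mice (n = 5) had drunk water with 1 g/L NaNO3 for 8 weeks, whereas the 6 old controls are labeled only as controls that were taken over from earlier work, and the study's methods name sodium chloride in the water as the control treatment. Each array held the RNA of 1 mouse, no transgene is named in the labels, and a further nitrate treated mouse was not analysed here. By the labels' protocol, blood was washed out with saline from the left ventricle, and fat and connective tissue were removed from the aorta.

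The wall of the aorta is built from smooth muscle, which lacks the ordered sarcomeres of striated muscle. In heart and skeletal muscle, myosin heavy chains pull on actin filaments, myosin light chains tune the motor, and the troponin complex on the thin filament lets calcium switch contraction on. Heart chambers differ in their light chains, with Myl7 in the atria and Myl2 in the ventricles, and atrial muscle also makes the hormone encoded by Nppa.

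The results below rest on hybridization to single probes of 60 bases, and 4 of them are printed as the files give them because the contrast between mice turns on them. Myl7 and Myl2 are the atrial and the ventricular light chain, Tnni3 is the troponin subunit of adult heart muscle, and Acta1 is the skeletal actin. Letters are in lower case throughout.
Myl7 probe: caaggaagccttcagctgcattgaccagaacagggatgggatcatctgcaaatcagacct
Myl2 probe: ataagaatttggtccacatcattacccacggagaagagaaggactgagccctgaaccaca
Tnni3 probe: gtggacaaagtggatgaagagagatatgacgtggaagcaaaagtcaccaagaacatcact
Acta1 probe: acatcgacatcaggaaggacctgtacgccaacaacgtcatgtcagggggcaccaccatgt
In the mouse build mm9 named in the files, the Myl7 probe lies on the minus strand at chr11:5798186-5798435, a stretch of 250 bases that its 60 letters do not fill. The Myl2 probe lies on the plus strand at chr5:122556732-122556791, the Tnni3 probe on the minus strand at chr7:4472043-4472102 and the Acta1 probe on the minus strand at chr8:126416197-126416256. For the 11 member probes, the most similar probe named for another gene matched between 24 and 33 of the 60 bases. Transcripts of related genes were not compared with the probes, and because actin genes are much alike in their coding sequence, the level at the Acta1 probe is uncertain.

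Values are log2 signals, normalized so that all arrays share 1 distribution of signals, and 1 unit is a doubling. A signal is called well above background by the flag of the scanner software. The arrays were similar in brightness, with a 75th percentile of the processed signal between 216 and 289 in nitrate treated mice and between 213 and 282 in controls, no saturated spot and at most 186 flagged spots of 59305 on an array. Markers of the vessel wall were present, since all 12 smooth muscle markers were well above background on all 11 arrays, and Acta2, the main smooth muscle actin, lay between 17.76 and 18.06. The arrays lay on 3 slides. Every control was hybridized in the same slide column, where no nitrate treated mouse lay, so that column and treatment cannot be told apart.

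Messages of the heart's contractile apparatus differed widely between single mice. For Myh6, Actc1, Tnnt2, Tnni3, Myl7 and Nppa the difference between the group means was smaller than the SD within either group. This was narrow for Tnnt2, at 0.537 against 0.543 in controls, and for Myl2 the difference of 1.06 was above the control SD of 0.98. Nitrate treated mouse 4 and control 1 had the highest signals for Myh6, Actc1, Tnnt2, Tnni3, Myl7 and Nppa. Nitrate treated mouse 5 was intermediate for Myh6, Actc1 and Tnni3, and the other 8 mice were lower for these genes. For Myl7 it came next as well, but at 7.37 it lay close to control 6 at 7.03. For Tcap, the sarcomere protein telethonin, nitrate treated mice were 1.82-fold higher, and it was the only member that passed the criteria of the study.

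Myh6 encodes the fast cardiac myosin heavy chain of the atria and of the adult mouse ventricle. Its log2 signal was 10.13, 10.32, 8.59, 14.64 and 12.32 in nitrate treated mice 1 to 5. Controls ranged from 7.14 to 14.05 with a median of 9.08, and the highest was control 1. The groups overlapped over most of their range, and from the lowest to the highest mouse, control 4 and nitrate treated mouse 4, the signal differed 181-fold. The second Myh6 probe was well above background only in nitrate treated mice 4 and 5, at 6.60 and 5.04, and in control 1, at 7.10, which are the mice with the highest signals at the first probe. The nitrate mean was 11.20 ± 2.34 (SD, n = 5) and the control mean 9.56 ± 2.55 (SD, n = 6). This difference of 1.64 (SE 1.29) did not pass the test (exact permutation P = 0.286, limma adjusted P = 0.588). It was 0.78 without nitrate treated mouse 4, and 2.54 without control 1, where it met the criteria of the study.

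Actc1 is the actin of the heart's thin filament. In nitrate treated mice 1 to 5 the log2 signal was 8.57, 8.46, 8.13, 13.23 and 10.36, and in controls it ranged from 7.27 to 12.64 with a median of 7.80. Control 1 again was the highest control, with the next at 9.07. The range over all mice corresponded to a 62.2-fold difference in signal. The difference between the group means was 1.06 (SE 1.09, exact permutation P = 0.413, limma adjusted P = 0.690), which was smaller than the SD within either group (2.13 and 2.03). It was 0.19 without nitrate treated mouse 4 and 1.84 without control 1.

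Tnnt2 and Tnni3 encode the cardiac troponins T and I, which anchor the complex to the thin filament and inhibit contraction at low calcium. Tnnt2 was well above background in every mouse, at 11.26, 11.10, 10.68, 12.42 and 10.99 in nitrate treated mice 1 to 5. In controls it lay between 10.34 and 11.80 with a median of 10.58, so the same 2 mice were highest, yet over a range of only 2.07. The difference of 0.54 (SE 0.32) did not pass the test (exact permutation P = 0.182, limma adjusted P = 0.465). Without control 1 it was 0.75, and without control 1 and nitrate treated mouse 4 it was 0.46, so that in both fits it met the criteria of the study. With only nitrate treated mouse 4 left out it was 0.26 and did not meet them.

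Tnni3 had a log2 signal of 6.36, 6.14, 5.35, 10.48 and 7.91 in nitrate treated mice 1 to 5. Controls ranged from 4.39 to 10.23 with a median of 6.12, and control 3, the lowest, was not well above background. The difference was 0.80 (SE 1.08, exact permutation P = 0.517, limma adjusted P = 0.775), and it was -0.00490 without nitrate treated mouse 4 and 1.56 without control 1.

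The myosin light chains of the 2 kinds of heart chamber shared control 1 as the highest control but differed in nitrate treated mouse 4. Myl7, the atrial regulatory light chain, was 7.0, 6.84, 4.70, 10.99 and 7.37 in nitrate treated mice 1 to 5. Its controls ranged from 4.29 to 10.52 with a median of 5.35, control 1 being the highest, and control 3 was not well above background. The difference was 1.19 (SE 1.22, exact permutation P = 0.411, limma adjusted P = 0.685), and it was 0.28 without nitrate treated mouse 4 and 2.05 without control 1.

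Myl2, the ventricular regulatory light chain, was 4.31, 4.31, 4.20, 4.68 and 9.98 in nitrate treated mice 1 to 5. In controls it lay between 3.66 and 5.99 with a median of 4.0, and control 1 was the highest. Only nitrate treated mice 4 and 5 and 4 of the 6 controls were well above background, so Myl2 was not among the tested probes. Nitrate treated mouse 5 stood far above all others, while nitrate treated mouse 4, with the highest Myl7, lay near the mice without a clear signal. A fit over all probes gave a difference of 1.06 (SE 1.03, exact permutation P = 0.461), which was -0.06 without nitrate treated mouse 5.

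Nppa encodes the precursor of atrial natriuretic peptide, a hormone that atrial muscle releases on stretch. The log2 signal was 4.66, 4.37, 4.51, 13.45 and 6.14 in nitrate treated mice 1 to 5, of which mice 2 and 3 were not well above background. Controls ranged from 4.51 to 12.46 with a median of 5.57, and after control 1 came control 5 at 7.17. The 10 spots of the probe lay close together within an array, with an SD of the log2 processed signal between 0.03 and 0.38 and a median of 0.23, against a range between mice of 9.09, whose lowest mouse was not well above background. The median processed signal of these spots was 12299 in nitrate treated mouse 4 and 5174 in control 1, against 165 in control 5 and 78.9 in nitrate treated mouse 5. The group means differed by -0.02 (SE 1.81, exact permutation P = 0.989, limma adjusted P = 0.998), with 1 mouse far above the rest in each group, and the difference was -1.72 without nitrate treated mouse 4 and 1.15 without control 1.

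**Figure D1:**
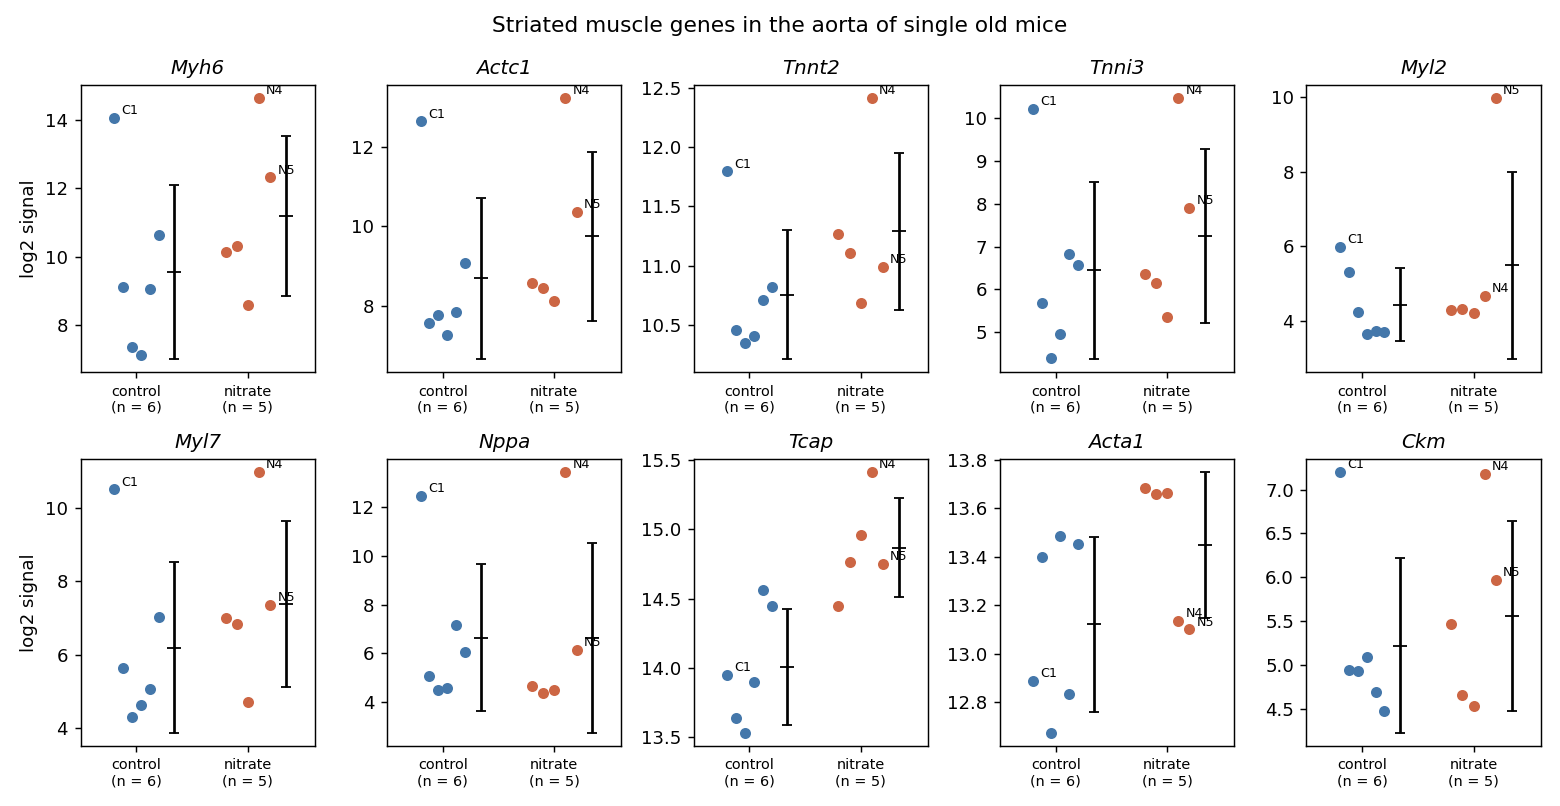
Log2 signal of the 10 members in each mouse, with controls in blue and nitrate treated mice in orange; bars give the mean ± SD and the vertical axes differ between genes. Control 1 (C1) and nitrate treated mouse 4 (N4) stand above the others for Myh6, Actc1, Tnnt2, Tnni3, Myl7 and Nppa, nitrate treated mouse 5 (N5) for Myl2, and Tcap is higher in the nitrate group.

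Tcap, Acta1 and Ckm are shared by heart and skeletal muscle or belong mainly to the latter. Tcap caps the giant protein titin at the edge of the sarcomere. Its log2 signal was 14.45, 14.76, 14.96, 15.41 and 14.75 in nitrate treated mice 1 to 5, and controls ranged from 13.53 to 14.56 with a median of 13.93. The groups overlapped only through nitrate treated mouse 1 and controls 5 and 6. The means were 14.87 ± 0.36 (SD, n = 5) and 14.01 ± 0.42 (SD, n = 6), a difference of 0.86 (SE 0.21). It passed a threshold of 0.05 without adjustment, in limma (P = 0.00161) and in a two-sided exact permutation test (P = 0.0130), and it did not pass the adjustment over all tested probes (limma adjusted P = 0.152).

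The Tcap difference was 0.81, 0.78 and 1.03 within the 3 slides and lay between 0.72 and 0.97 when any 1 mouse was left out, and in all 11 of those fits it passed the criteria. Nitrate treated mouse 4 was the highest for Tcap as for Myh6 and Myl7, whereas control 1, next in order for those genes, had 13.95 for Tcap, below the median of all mice.

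Acta1, the alpha actin of skeletal muscle, was 13.68, 13.66, 13.66, 13.14 and 13.10 in nitrate treated mice 1 to 5. Controls ranged from 12.67 to 13.48 around a median of 13.14. The mice with high cardiac signals were in the lower part of the nitrate group, and control 1 at 12.89 was below the control median. The difference was 0.33 (SE 0.18, exact permutation P = 0.145, limma adjusted P = 0.437). With the slide as a block it was 0.38, which met the criteria of the study.

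Ckm, the muscle creatine kinase that buffers ATP, was 5.46, 4.66, 4.53, 7.18 and 5.97 in nitrate treated mice 1 to 5, where mice 2 and 3 were not well above background. In controls it ranged from 4.47 to 7.20 with a median of 4.94, and control 6 was not well above background. Control 1 and nitrate treated mouse 4 were again highest. The difference was 0.34 (SE 0.55, exact permutation P = 0.565, limma adjusted P = 0.820), and it was -0.07 without nitrate treated mouse 4 and 0.74 without control 1.

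Of the 10 members 9 could be tested, and 1 of these, Tcap, met the criteria of the study, which are a fold change above 1.2 and an unadjusted limma P value below 0.05. Among all 23630 tested probes 9.00% were called, 4.16% higher and 4.85% lower, so 1 in 9 is near the background. Without control 1 and nitrate treated mouse 4, 2 members were called, Tcap and Tnnt2, against 7.89% of the tested probes. After Benjamini-Hochberg adjustment 0 of the 9 passed in limma, against 0.0127% of all tested probes. The nitrate mean was above the control mean for 9 of the 10 members, whereas 53.8% of the tested probes had a difference above 0. The median difference of the 9 tested members was 0.80, and of all tested probes 0.01. These values depend on nitrate treated mouse 4, without which the nitrate mean was above the control mean for 7 of the 10 members. Of the 9 tested only Acta1 then had a higher difference, at 0.41. The 2 groups were free of overlap for 0 members, against 2.75% of tested probes. The heart members were high and low in the same mice, so they are not independent of each other.

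Within slides, the direction was not constant for the heart members. On slide 1, which held control 1, the difference was -1.35 for Myh6, -1.59 for Actc1, -1.70 for Tnni3 and -1.16 for Myl7 (2 mice in each group). On slide 3, which held nitrate treated mice 4 and 5, it was 5.27, 3.99, 3.58 and 4.51 for the same genes (2 mice in each group). On slide 2, without any of these 3 mice, the differences were -0.30, -0.04, -0.42 and -1.13, with 1 nitrate treated mouse and 2 controls. For Nppa the differences were -4.25, -0.81 and 3.96 on slides 1 to 3, and for Ckm -1.01, -0.25 and 1.76. For Myl2 they were -1.34, 0.53 and 3.33. Tnnt2 and Acta1, like Tcap, were higher in the nitrate group on each slide, by 0.06, 0.07 and 1.18 and by 0.53, 0.20 and 0.37.

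**Figure D2:**
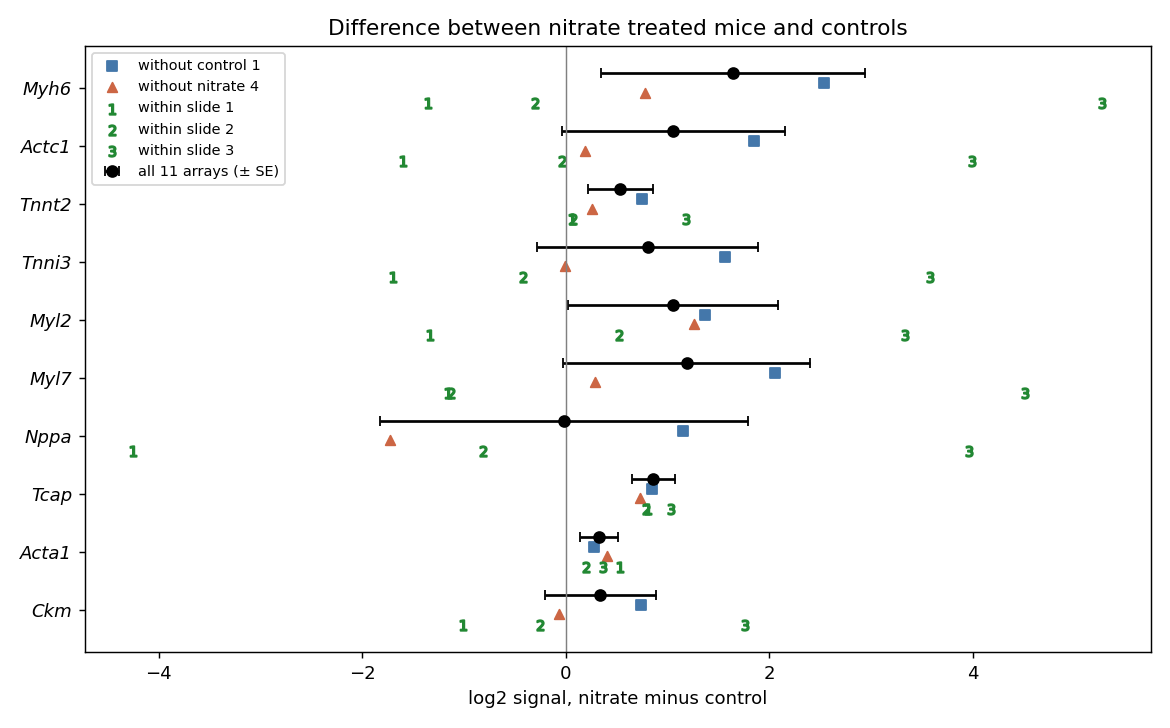
Difference in log2 signal between nitrate treated mice and controls for each member, over all 11 arrays (black, ± SE), without control 1 (blue square), without nitrate treated mouse 4 (orange triangle) and within slides 1, 2 and 3 (green digits). For Tcap, Acta1 and Tnnt2 the values stay on the right of 0, those of Tnnt2 within slides 1 and 2 only just. For Myh6, Actc1, Tnni3, Myl2, Myl7, Nppa and Ckm the slides lie on both sides.

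The heart members were set apart by their spread. The SD between mice was above the 99th percentile of all tested probes in each group for 7 of the 10 members, Myh6, Actc1, Tnni3, Myl2, Myl7, Nppa and Ckm. Among nitrate treated mice the SD was 3.88 for Nppa, 2.51 for Myl2 and 2.34 for Myh6, where the median over all tested probes was 0.16. Among controls it was 3.02 for Nppa, 2.55 for Myh6 and 2.33 for Myl7, with a median of 0.18 over all tested probes. Tnnt2, at 0.66 and 0.54, lay higher than 98.6% and 96.7% of tested probes. Acta1 had the smallest spread among the members, with an SD of 0.30 in nitrate treated mice and 0.36 in controls.

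Without control 1 and nitrate treated mouse 4 the spread of the heart members and Ckm was smaller, except for Myl2, which kept its range of 6.32. The range of Tnnt2 was then 0.92 instead of 2.07 and that of Ckm 1.5 instead of 2.73. Myh6 ranged over 5.18, Tnni3 over 3.51, Actc1 over 3.10, Myl7 over 3.07 and Nppa over 2.81, whereas the median range of a tested probe over all mice was 0.64. The lowest of these mice was not well above background for Tnni3, Myl7 and Nppa. Nitrate treated mouse 5 was then the highest for Myh6, Actc1, Tnni3 and Myl7, and control 5 for Nppa. For 7 of the 10 members the 2 highest mice of all 11 were nitrate treated mouse 4 and control 1, which held for 1.17% of tested probes.

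**Figure D3:**
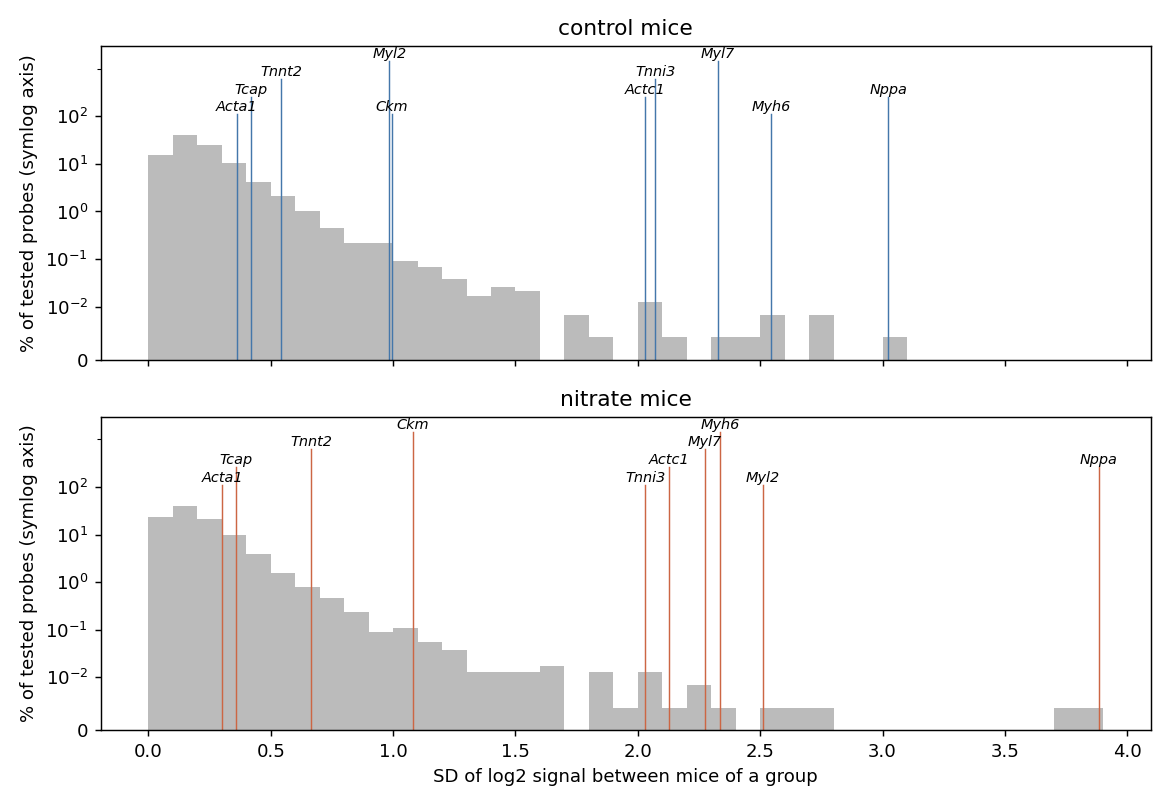
Histogram of the SD of the log2 signal between mice, over all tested probes, in controls (top) and nitrate treated mice (bottom), with the share of probes on an axis that is logarithmic above its lowest part. Lines mark the members: 7 of 10 lie beyond the 99th percentile in each group, and Tcap and Acta1 have the smallest values among the members.

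To order the mice, the 7 heart members (Myh6, Actc1, Tnnt2, Tnni3, Myl2, Myl7 and Nppa) were set against their median over the 11 arrays and averaged. This mean was 3.98 in nitrate treated mouse 4, 3.67 in control 1 and 1.87 in nitrate treated mouse 5. The others followed at 0.27 in control 6, 0.04 and -0.06 in nitrate treated mice 1 and 2, -0.23 in control 5, -0.45 in control 2, -0.83 in nitrate treated mouse 3, and -1.29 and -1.34 in controls 3 and 4. Both groups thus held a mouse at the upper end, while the lowest were controls 4 and 3, followed by nitrate treated mouse 3. In bulk tissue such as this, fewer cells of a type and less RNA per cell cannot be told apart.

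Of 25 other heart genes, 15 had nitrate treated mouse 4 and control 1 as their highest mice. Among them, Sln, a regulator of the calcium pump, was 12.27 and 11.90 in these mice and 7.99 in nitrate treated mouse 5. The sarcomere protein Csrp3 was 9.57, 9.14 and 6.78 and Mybpc3 9.88, 9.79 and 7.81 in the same order, and both were well above background in 5 of the 11 mice. The calcium-binding troponin Tnnc1, well above background in these 3 mice alone, was 8.26, 7.95 and 5.95, and Smpx, well above background in 2 mice, was 6.74 in nitrate treated mouse 4 and 6.50 in control 1. 12 of the 25 could be tested and 3 were called, all higher in nitrate treated mice, against 4.16% of all tested probes called higher, and the median difference over the 12 was 0.43. These were Ryr2, the calcium release channel of the heart (0.48, SE 0.14, exact permutation P = 0.00649, limma adjusted P = 0.194), Hspb7, a small heat shock protein of heart muscle (0.49, SE 0.13, exact permutation P = 0.0108, limma adjusted P = 0.183), and Hand2, a transcription factor of heart and vessel development (0.99, SE 0.41, exact permutation P = 0.0671, limma adjusted P = 0.312). Hand2 was highest in nitrate treated mice 5 and 4, at 6.79 and 6.78, with the others at 5.81 or less. Ryr2 was highest in nitrate treated mice 4 and 5, at 8.44 and 8.07. Both mice had high heart means, but control 1, which did too, had 5.48 for Hand2, the median of the arrays. For Ryr2 control 1 had 7.90, between nitrate treated mouse 1 at 7.84 and mouse 3 at 7.92, with the other controls at 7.68 or less. Hspb7 was highest in nitrate treated mice 2, 3 and 1, at 12.03, 11.84 and 11.68, and control 1, at 11.07, lay below the median of the arrays. Ryr2 is also known from smooth muscle.

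Of 24 other genes that heart and skeletal muscle share, nitrate treated mouse 4 and control 1 were the highest for 14, and for 15 these 2 and nitrate treated mouse 5 made up the highest 3. The respiratory chain subunit Cox6a2 ranged over 6.99 and myoglobin (Mb) over 6.57, both well above background in all mice. Myom2, of the sarcomere's M band, was 10.65 in nitrate treated mouse 4, 10.22 in control 1 and 7.46 in nitrate treated mouse 5, and was well above background in 8 of the 11 mice. The mitochondrial creatine kinase Ckmt2, well above background in these 3 mice alone, was 10.29, 9.62 and 7.43. Titin (Ttn) was well above background in 3 of the 11 mice, at 8.58, 8.10 and 6.64 in nitrate treated mouse 4, control 1 and nitrate treated mouse 5. Its cap, Tcap, was well above background in all 11. Of the 24, 17 were tested and 0 called, against 9.00% of all tested probes. Of these 17, 0 had an unadjusted limma P below 0.05, and their median difference was 0.15.

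Of 30 genes of skeletal muscle 14 were well above background in all 11 mice and 13 in no mouse. Among these 13 were the fast and the embryonic myosins Myh1, Myh2, Myh4 and Myh3 and the fast light chain Mylpf. The myogenic regulators Myod1, Myog, Myf5 and Myf6 were among them too. For 2 of the 30 genes, Myh8 and Myl1, nitrate treated mouse 4 and control 1 were the highest. 16 were tested, with a median difference of 0.07. Atp2a1, the fast muscle calcium pump, was called higher, against 4.16% of all tested probes (0.29, SE 0.09, exact permutation P = 0.0173, limma adjusted P = 0.232) and Cacna1s, the voltage sensor of skeletal muscle, lower, against 4.85% (-0.57, SE 0.23, exact permutation P = 0.0411, limma adjusted P = 0.310). Cacna1s was well above background in all 6 controls but in 2 of the 5 nitrate treated mice, so it was tested only through the group where it was higher, and its difference is taken against signals near background. Of the genes with a wide range, Myh8, the perinatal myosin heavy chain, ranged over 5.61, Tnni2 over 1.79 and Myl1 over 1.70, all well above background in all mice, whereas Myh2 and Ryr1 were well above background in none.

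**Figure D4:**
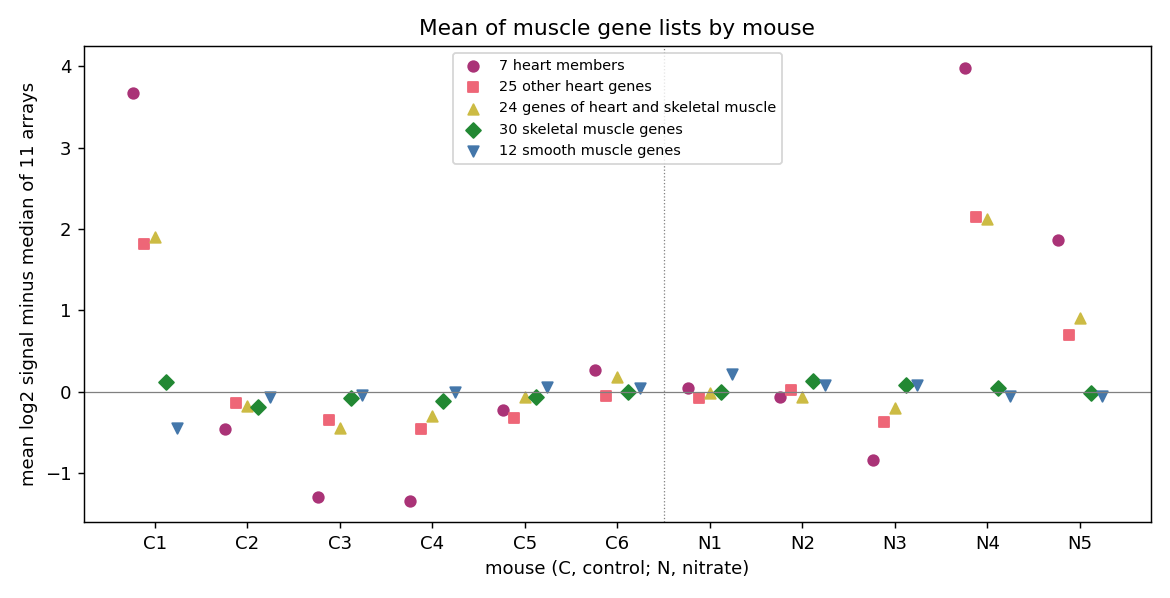
Mean log2 signal of the genes of each muscle list in each mouse, after subtraction of each gene's median over the 11 arrays (C, control; N, nitrate). The heart members, other heart genes and genes shared by heart and skeletal muscle are high in C1 and N4 and, to a lesser extent, in N5. The means of the 30 skeletal and of the 12 smooth muscle genes stay between -0.45 and 0.22. Of the 30 skeletal genes 13 were well above background in no mouse, and single genes differ from the mean, as Myh8 is 3.90 above its median in N4.

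The mice with high heart signals also differed from each other in some chamber-specific genes, which were grouped after their values had been seen. The mean of 4 genes typical of the atria (Myl7, Nppa, the atrial light chain Myl4 and Sln), against their medians, was 5.37 in nitrate treated mouse 4, 4.74 in control 1 and 0.78 in nitrate treated mouse 5. The mean of 3 genes of ventricle and slow muscle (Myl2, Myl3 and Myh7) was 3.52 in nitrate treated mouse 5, 1.36 in control 1 and 1.15 in nitrate treated mouse 4. In nitrate treated mouse 5, Myl3, the ventricular essential light chain, reached 10.50, against 9.00 in nitrate treated mouse 4, 8.86 in control 1 and between 5.74 and 7.23 in the others. Myl4 in turn was 14.15 in nitrate treated mouse 4, 13.48 in control 1 and 10.98 in nitrate treated mouse 5. Myh7, the slow myosin of the ventricle, lay between 4.68 and 5.94 in all mice. Other heart genes that the atria express were divided. Corin, the protease that processes the Nppa product, was well above background in nitrate treated mouse 4 and control 1 alone, at 5.08 and 5.0, as was the natriuretic peptide gene Nppb, at 6.15 and 6.66. The transcription factor Tbx5 was highest in control 1, at 7.36, and in nitrate treated mouse 4, at 6.60. Gja5, a gap junction protein of atria and arteries, was 9.49 in nitrate treated mouse 4 and 9.22 in control 1, and highest in nitrate treated mouse 1, at 10.30. Kcnj3, an atrial potassium channel, was well above background in 3 mice, at 4.90 in control 2, 4.61 in nitrate treated mouse 4 and 4.46 in control 5.

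**Figure D5:**
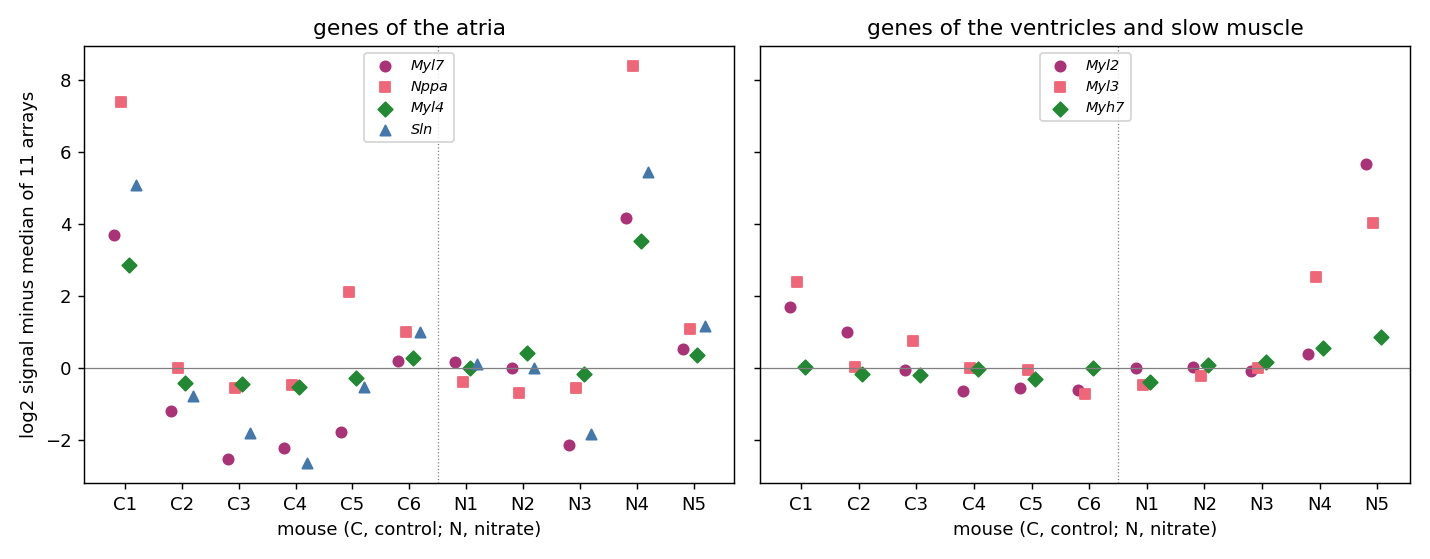
Log2 signal minus the median of the 11 arrays in each mouse (C, control; N, nitrate), for 4 genes of the atria (left) and 3 of the ventricles and slow muscle (right), grouped after their values had been seen. The 4 genes on the left peak in C1 and N4, and Myl2 and Myl3 peak in N5.

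Markers of other cell types were read in the same mice, and their part in the results was not tested. Smooth muscle was lowest in control 1, where the mean of its 12 markers was -0.45, against values between -0.06 and 0.22 in the other mice. The mean of 8 brown fat markers was 0.78 in control 1, 0.49 in nitrate treated mouse 4 and 0.44 in nitrate treated mouse 5, and between -0.59 and 0.23 in the others. All 8 were well above background in every mouse, and for 3 of the 8 these mice were the highest, among them Ucp1, the uncoupling protein of brown fat. Others did not follow, and Dio2, the deiodinase that activates thyroid hormone, was lowest in control 1, at 10.52. Of the 8 markers 2, Cidea and Kcnk3, were called lower in nitrate treated mice, against 4.85% of all tested probes. The 11 adipocyte markers had a mean between -0.51 and 0.53, with nitrate below control for all 11 and 5 of them called lower, against 4.85% of all tested probes. The mean of 5 erythroid markers was lowest in nitrate treated mice 5 and 4, at -0.72 and -0.65, against -0.42 to 0.81 in the others, and all 5 had a nitrate mean below the control mean, with 0 of 4 tested called and a median difference of -0.45. All 6 macrophage markers on the array had a nitrate mean above the control mean, with a median difference of 0.13 and 0 called. Of 4 lung epithelium markers, Sftpb and Sftpa1 were well above background in no mouse and Sftpc in 1, while Scgb1a1 had its highest value, 6.44, in nitrate treated mouse 5. Beside the Tcap result, 11 of 12 smooth muscle markers had a nitrate mean above the control mean with a median difference of 0.15, and 1, Lmod1, was called, against 4.16% of all tested probes called higher (0.31, SE 0.11, exact permutation P = 0.0325, limma adjusted P = 0.285). Smtn, the smooth muscle protein smoothelin, was the 1 marker whose groups did not overlap, against 2.75% of tested probes, with 15.49 to 15.72 in nitrate treated mice and 14.80 to 15.46 in controls, and its difference of 0.26 did not reach the required fold change.

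By likeness of pattern over the 11 mice, measured as the root mean square difference in log2 signal after each gene's median was subtracted, the gene nearest to the mean of the 7 heart members was Myh8 (0.38), of 18284 genes compared. It was followed by Fndc5 (0.62), Cox6a2 (0.66), Mb (0.67), Myl4 (0.69), Sln (0.87), the calcium pump inhibitor Pln (1.03), Igsf1 (1.05), the Z-disc protein Actn2 (1.14) and Myl3 (1.23). The heart mean itself deviated by 1.84 from its median on the same measure. The Myh8 probe had 10.29 in nitrate treated mouse 4, 10.18 in control 1 and 8.19 in nitrate treated mouse 5, and between 4.68 and 6.86 in the others. For Ckm the nearest genes were Pln (0.32), Actn2 (0.49), Igsf1 (0.53), Fndc5 (0.53) and the fatty acid elongase Elovl3 (0.57), against 1.05 for Ckm itself. For Acta1 they were Krt85, Glis1, 2 transcripts named LOC669024 and ENSMUST00000098778, and Itga9, at 0.15 to 0.17 against 0.37 for Acta1, and none of these 5 was among the nearest to the heart mean.

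Promoters were available for 9 of the 10 members, from RefSeq on GRCm38.p6, and the 250 bases before the start of each gene were searched on both strands for the CArG box, the element bound by serum response factor in muscle genes. The box was found in 3 of the 9, Acta1, Actc1 and Myl7, and in 1.47% of all 32851 promoters. These 3 are printed because they hold the box both in members that peaked in control 1 and nitrate treated mouse 4, Actc1 and Myl7, and in the most even one, Acta1, and the capitals mark the CArG box.
Acta1 promoter: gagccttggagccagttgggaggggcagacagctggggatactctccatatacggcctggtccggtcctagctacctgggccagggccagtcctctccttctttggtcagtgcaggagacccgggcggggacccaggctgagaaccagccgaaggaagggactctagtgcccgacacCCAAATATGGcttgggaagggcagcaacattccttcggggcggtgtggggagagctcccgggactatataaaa
Actc1 promoter: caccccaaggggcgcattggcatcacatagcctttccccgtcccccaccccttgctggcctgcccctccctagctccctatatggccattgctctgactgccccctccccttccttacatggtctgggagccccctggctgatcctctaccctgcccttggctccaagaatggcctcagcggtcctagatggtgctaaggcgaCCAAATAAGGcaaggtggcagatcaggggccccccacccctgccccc
Myl7 promoter: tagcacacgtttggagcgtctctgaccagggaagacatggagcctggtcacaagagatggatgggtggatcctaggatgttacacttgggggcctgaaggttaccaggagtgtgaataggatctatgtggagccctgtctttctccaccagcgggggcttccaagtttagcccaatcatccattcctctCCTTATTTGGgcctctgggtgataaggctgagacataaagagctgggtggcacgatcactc
All 3 genes lie on the minus strand, Acta1 at chr8:123894776-123895025, Actc1 at chr2:114052876-114053125 and Myl7 at chr11:5898783-5899032 for the bases shown. The box lay 73 to 64 bases before the start in Acta1, 47 to 38 in Actc1 and 61 to 52 in Myl7. No match elsewhere says only that these letters are not in the window.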

How the data were processed

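Spot intensities and quality flags of each array were deposited by the authors as Feature Extraction 10.7.1.1 output, corrected for background but not scaled between arrays. The authors also deposited a log2 table, quantile normalized and set against each probe's median, and this correlated with the values computed here at 0.9999 or more on each array. Processed signals below 1 were set to 1, spots of controls or with outlier flags were dropped, spots of a probe were averaged on the log2 scale, and quantile normalization followed (R 4.3.3, limma 3.58.1). Tested probes, 23630 of 55681, were found and well above background in 5 or more mice of a group, and were compared with lmFit and eBayes without covariates. Benjamini-Hochberg adjustment was over all of them, and values outside them come from a fit over all probes. A probe was called at P under 0.05 and a fold above 1.2. Exact permutation tests were two-sided over all 462 divisions, with 0.00216 as the smallest P value. With 5 and 6 arrays, their number limits the precision.

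A gene was represented by its tested probe of highest mean signal. Probe positions (mm9) and names are those of the files. Named were all members, the genes called or among the 5 with the largest range in each other muscle list, markers beside a result, and the 10, 5 and 5 genes most like the heart mean, Acta1 and Ckm. Members and lists were chosen with earlier results of these data known. Myl4, Myl3, Myh7, Gja5, Kcnj3, Corin, Nppb, Tbx5, the atrial and ventricular groupings and the undetected skeletal genes were chosen after their values were seen. Replicate numbers did not pair the mice (correlation of deviations between -0.14 and 0.18). The test was checked on simulated data. The labels do not show whether the groups were housed together. Alternatives covered scaling, background correction, an offset, the deposited table, flagged spots, detection, prior variance, probe choice, blocks for slide and replicate number, and mice left out.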

Additional observations from a re-analysis of the deposited data

Results flagged for a closer look

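Among 22 groups of values of 5 or 6 mice, 7 held a mouse whose gap to the next exceeded Dixon's 95% critical value, where chance would flag about 1 in 20 groups, or 1.1 of 22. The values below are that gap divided by the range of the group. Control 1 was far above the other controls for Actc1 (0.665), Tnnt2 (0.675), Nppa (0.665), Ckm (0.776) and the mean of the 7 heart members (0.679). Nitrate treated mouse 4 was far above the others for Nppa (0.805), and nitrate treated mouse 5 for Myl2 (0.918). The groups are not independent, since the same mice carry several genes and the heart mean repeats its members. Because the members were picked with earlier results of these arrays known, the 7 flagged groups are a description. They cannot be set against chance as a test.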

How the results depend on the processing

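Against 1 member called (Tcap), 2 were called with the slide as a block (Acta1 added), 0 at an adjusted P under 0.05, 1 to 3 when 1 mouse was left out (3 without control 1, where Myh6 at 2.54 and Tnnt2 at 0.75 were added), 2 without control 1 and nitrate 4, and 3 without these and nitrate 5, a setting chosen after seeing the data. In this last setting Tnnt2 was 0.47 and Acta1 0.50, and both were called. Of the other striated muscle genes 5 were called, against 3 with normexp background correction, 3 where detection on all 11 arrays was required, 0 after adjustment, 3 to 7 with 1 mouse left out (3 without nitrate 1, 7 without control 1) and 11 without the 3 mice. Beside these counts, all tested probes gave 2127 calls, 1217 with normexp, 2461 with the slide block, 1628 with detection on all arrays, 1595 to 2423 with 1 mouse left out (1595 without control 1, 1950 without nitrate 1), 1864 without control 1 and nitrate 4, 2974 without the 3 mice and 3224 without a detection filter. Nppa turned from -0.02 to 0.19 with normexp, 0.084 with an offset of 16 and 3.96 within slide 3, and ranged from -1.72 to 1.15 with 1 mouse left out. Leaving out 1 mouse gave -0.00490 to 1.56 for Tnni3, -0.0656 to 0.74 for Ckm and -0.0647 to 1.38 for Myl2. Within slide 1, Myh6 was -1.35, Actc1 -1.59, Tnni3 -1.70, Myl2 -1.34, Myl7 -1.16 and Ckm -1.01, and within slide 2 Myh6 was -0.30, Actc1 -0.037, Tnni3 -0.42, Myl7 -1.13 and Ckm -0.25. The causes of these changes were not tested, beyond the arrays that each setting leaves out. With the replicate block 1 member was called (Tcap, 0.95), 4 other striated muscle genes and 2432 probes, but the replicate numbers did not pair the mice. Tcap kept its direction in all 25 alternatives and was called in each that had a test without adjustment, and the 3 mice with the highest heart mean were the same in all 6 alternatives of normalization and probe choice. Signals close to background in part of the mice limit Tnni3, Myl2, Myl7, Nppa and Ckm, and among the other genes Csrp3, Mybpc3, Tnnc1, Smpx, Myom2, Ckmt2, Ttn and Cacna1s.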
